A study of Mus musculus with 6 samples.

Results

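The response of GM-CSF bone marrow cultures to heme 24 h after its addition was described from 2 of the 6 arrays of the series, 1 with heme and 1 with vehicle. All 6 came from Spic(igfp/igfp) marrow, in which both copies of Spic, a transcription factor gene, carry the igfp allele, and no wild-type array was analysed here. Marrow cells had been grown with 20 ng/ml recombinant GM-CSF and 10% fetal calf serum for 6 days before heme was given. The dose is written as 80 µm in the labels and is read here as 80 µM, and the vehicle was 0.15 M NaCl with 10% NH4OH. Floating cells were removed and the adherent cells were scraped off at 6, 24 or 72 h, with 1 array for each treatment and time. The labels do not say what the igfp allele carries, how old the mice were or whether arrays came from separate mice or dishes. The difference studied is the log2 value with heme minus the log2 value with vehicle at 24 h. Among probe sets naming a single gene, the one of highest mean on all 6 arrays stood for it. A gene needed a value of at least 5.37, the whole table's median, on some array to be kept, which left 11516 of 19938 genes. With 1 array a side no spread within a group exists, so differences have no error and no test, and "higher" and "lower" describe these 2 arrays.

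Heme is the iron-holding group of hemoglobin and is toxic when free, because its iron drives oxidation. Macrophages that take up aged red cells break it down with heme oxygenase into iron, carbon monoxide and biliverdin, and pass the iron out through ferroportin. Heme also binds the repressor BACH1, which releases antioxidant genes for activation by NRF2, and it can act as an inflammatory stimulus through Toll-like receptor 4. In the spleen, this work is done by red pulp macrophages, whose formation depends on SPI-C. GM-CSF cultures of marrow hold macrophages, dendritic cells and, in their first week, neutrophils. The series asks, by its title and design, about heme in the development of iron-recycling macrophages.

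Most genes differed little between the 2 arrays at 24 h. Of the 11516 differences, those from percentile 25 to percentile 75 lay between -0.20 and 0.16, with a median of -0.02 and an SD over genes of 0.37. In all, 164 genes were at least 2-fold higher with heme (1.42% of the genes kept) and 56 were at least 2-fold lower (0.486%), and 45 and 4 of them passed 4-fold. Probe sets that do not name a single gene are outside these counts. They are counted at the end, and more of them were 2-fold lower than higher. The difference nearest above the 2-fold threshold was that of Adam8 (1.001) and the nearest below it that of Tmem176a (0.997), so the counts depend on an arbitrary line. A level under 5.37 was not taken as above background. With such levels set to 5.37, 146 of the 164 and 50 of the 56 genes still differed by 2-fold, and the differences they give are written as "at least". Genes with a second usable probe set were few. Both such genes on the higher side, Esd and Me1, were past 2-fold on it too (1.06 and 2.64), and of 4 on the lower side 3 had the same sign, the exception being Gsdme (0.31).

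**Figure D1:**
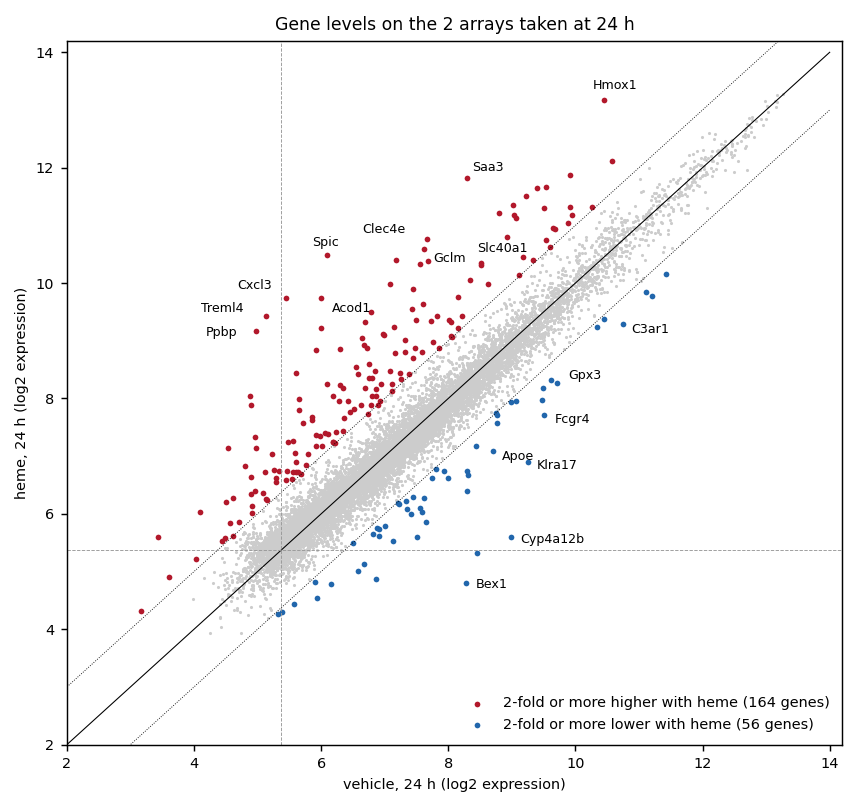
Log2 expression of the 11516 kept genes on the heme array (vertical axis) against the vehicle array (horizontal axis) at 24 h, 1 point per gene. The 164 genes above the upper dotted 2-fold line reach farther from the solid line of equality than the 56 below the lower one, and dashed lines mark the level filter of 5.37.

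The vehicle arrays of 6, 24 and 72 h were used to see how far a level moved in cultures without heme, although they are not replicates. Of the 164 genes higher with heme, 153 (93.3%) lay above all 3 vehicle arrays on the 24 h heme array, against 26.1% of all genes kept. Of the 56 lower genes, 45 (80.4%) lay below all 3 vehicle arrays, against 27.6% of all genes. These shares include the 24 h vehicle array that chose the genes and are given as a description. By at least 2-fold, 85 of the 164 exceeded the highest vehicle array and 11 of the 56 undercut the lowest. The 11 higher genes that stayed inside the vehicle range were Camp, Ngp, S100a8, S100a9, Stfa2, Stfa3, Csta3, Ccl17, Gpr65, H2-Oa and Il1r2. The first 7 are genes of neutrophils or of the stefin family that neutrophils express. All 7 were high on both 6 h arrays and lower on the 24 h vehicle array.

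Spic had the largest measured difference of all genes kept. Its level was 6.09 with vehicle and 10.49 with heme at 24 h, a difference of 4.40 or 21.1-fold, with 5.76 and 6.69 on the vehicle arrays of 6 and 72 h and 9.53 and 10.17 on the heme arrays of those times. The lowest heme array thus lay above the highest vehicle array. The labels do not say whether the igfp allele alters the part of Spic that its probe set reads. Treml4, a receptor of red pulp macrophages and of some dendritic cells, was at 5.13 with vehicle, under the filter, and at 9.43 with heme, at least 4.06 or 16.7-fold. Hmox1, heme oxygenase 1, was at 10.44 with vehicle and 13.18 with heme (2.74, 6.67-fold). Slc40a1, the iron exporter ferroportin, went from 8.51 to 10.35 (1.83, 3.57-fold). These were the only 4 of 17 kept markers of red pulp macrophages past 2-fold (1.42% of all genes), 0 were 2-fold lower, and the median of the list was 0.10. The other defining markers were not past 2-fold. Vcam1 lay under the level filter on all 6 arrays, and Cd163 lay under it on both 24 h arrays. Adgre1, which encodes F4/80, differed by 0.04, the receptor kinase gene Mertk by -0.23, the sialic acid receptor gene Siglec1 by -0.63 and the mannose receptor gene Mrc1 by -0.86. Among 31 myeloid transcription factors Spic was the only one past 2-fold (median 0.10). The next were Ets2 (0.94), Nfil3 (0.74) and, on the lower side, Bhlhe40 (-0.64).

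In heme breakdown and transport, 4 of 15 kept genes were at least 2-fold higher and 1 was lower, with a median of 0.03. Besides Hmox1 these were Hp, which encodes the hemoglobin-binding haptoglobin (7.44 to 9.90, a difference of 2.46), and the heme transporter gene Slc48a1 of the phagolysosome (9.06 to 11.12, or 2.06). Biliverdin reductase B, Blvrb, was at 8.92 with vehicle and 10.81 with heme (1.89), whereas Blvra differed by -0.24 and the second heme oxygenase gene, Hmox2, by -0.23. The members farthest below 0 were transporters. The organic anion transporter gene Slco2b1 was at 7.56 with vehicle and 6.09 with heme (-1.47), the heme exporter gene Abcg2 differed by -0.79 and Flvcr2 by -0.72. The carrier gene Slc46a1 lay above 0 (5.64 to 5.95, or 0.31). The median of the list is not firm, since it was -0.22 with the level filter raised by 1 and -0.17 against the mean of the 3 vehicle arrays.

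Of 21 genes of iron uptake, storage, export and regulation, 3 were 2-fold higher and 0 lower (median 0.01). Slc40a1 was joined by Lcn2, whose product binds bacterial iron carriers (6.70 to 9.32, or 2.62), and by Slc25a37, the mitochondrial iron importer (6.19 to 7.24, or 1.06). Lcn2 was at 9.20 on both 6 h arrays. The ferritin genes Fth1 and Ftl1 differed by 0.01 and -0.14, at vehicle levels of 13.15 and 12.61, and whether so high a signal is compressed was not tested. The transferrin receptor gene Tfrc differed by -0.02 and the transferrin gene Trf by -0.77. Among 10 genes of heme synthesis 0 passed 2-fold in either direction (median 0.11). The first enzyme gene, Alas1, differed by 0.54 and stayed inside the vehicle range.

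Genes of the antioxidant response were higher as members of 3 lists, while their regulators differed little. Of 13 kept genes of glutathione synthesis and cystine import, 4 were at least 2-fold higher and 1 was lower (median 0.77). Gclm, the modifier subunit of the first glutathione enzyme, was at 7.62 with vehicle and 10.59 with heme (2.96, 7.80-fold). The cystine transporter gene Slc7a11 was at 9.03 and 11.18 (2.15), and Gsr and the catalytic subunit gene Gclc differed by 1.19 and 1.09. The exception was the secreted peroxidase gene Gpx3, with 9.71 on the vehicle array and 8.27 on the heme array (-1.45). Of 17 genes of NADPH supply and the thioredoxin system, 5 were 2-fold higher and 0 lower (median 0.61). Malic enzyme, Me1, which makes NADPH, went from 4.96 to 7.33, at least 1.95. Mitochondrial superoxide dismutase, Sod2, differed by 1.80, sulfiredoxin, Srxn1, by 1.60, thioredoxin reductase, Txnrd1, by 1.48 and catalase, Cat, by 1.24.

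Detoxifying enzymes and conjugate exporters had the most members past 2-fold of these lists, 9 of 23, with 0 lower and a median of 0.60. The glutathione conjugate exporter gene Abcc1 went from 6.78 to 9.49 (2.71) and the glutathione transferase gene Gsta3 from 4.54 to 7.14, at least 1.77. Mgst2 differed by 2.04, Gstm2 by 1.87, Ptgr1 by 1.31, Esd by 1.27 and Abcc5 by 1.07. Akr1b8 was at least 1.38 higher. The quinone reductase Nqo1 had a measured difference of 1.65 but a vehicle level of 4.61, which leaves a bound of at least 0.89, under 2-fold. Among 11 regulators of the response 1 was past 2-fold, the autophagy receptor and KEAP1 binder Sqstm1 (9.53 to 10.75, or 1.22), and the median was 0.12. Mafg, a small MAF partner of NRF2, differed by 0.66, Nfe2l2, which encodes NRF2, by 0.32 and Keap1 by 0.13. Bach1 was at 7.91 on both arrays.

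Because these genes were higher together, the RefSeq promoter windows (GRCm38.p6, from 250 bases before to 50 after the gene start) were searched for the core of the antioxidant response element, TGACNNNGC, on both strands. The motif is short, and 12.4% of all 32851 windows hold it. By gene, it was found for 16.7% of 9291 kept genes with a window and for 22 of 127 genes (17.3%) at least 2-fold higher. On the antioxidant lists 16 of 58 genes (27.6%) held it. They were 5 of the 16 that were 2-fold higher with heme (31.2%) and 11 of the 42 that were not (26.2%). The 4 of those 5 with the largest difference are printed 5′ to 3′ on the gene's strand. The match is in capitals, to show where it lies relative to the start. For Gclm and Gsta3 the 150 bases before the start are given, and for Me1 and Srxn1, whose matches overlap or follow the start, 10 bases on either side. The Gclm stretch is chr3:122245407-122245556 on the + strand, that of Gsta3 chr1:21240435-21240584 (+), that of Me1 chr9:86695902-86695930 (- strand) and that of Srxn1 chr2:152105542-152105570 (+).
Gclm: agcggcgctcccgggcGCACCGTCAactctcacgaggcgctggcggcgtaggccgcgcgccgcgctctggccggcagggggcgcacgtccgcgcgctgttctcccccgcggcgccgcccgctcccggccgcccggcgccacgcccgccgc
Gsta3: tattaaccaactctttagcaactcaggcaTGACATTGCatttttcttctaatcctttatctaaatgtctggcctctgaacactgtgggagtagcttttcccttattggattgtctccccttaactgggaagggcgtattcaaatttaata
Me1: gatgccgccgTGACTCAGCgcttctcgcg
Srxn1: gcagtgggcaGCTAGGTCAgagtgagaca

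A match describes letters only and shows no binding, and genes without one may have the element outside this window.

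Inflammatory genes were the other large group, with some but not all chemokines among the largest differences. Of 7 kept chemokines of the neutrophil-attracting CXC class, with Pf4 and Cxcl16, 6 were at least 2-fold higher, 0 were lower and the median was 2.26. Cxcl3 was at 5.45 with vehicle and 9.73 with heme (4.28, 19.4-fold), Cxcl2 at 5.99 and 9.23 (3.23) and Cxcl1 at 6.10 and 8.25 (2.15). Ppbp, a chemokine gene of platelets and monocytes, went from 4.97 to 9.17, at least 3.80. Pf4, platelet factor 4, which macrophages also express, was at 9.39 and 11.65 (2.26). Cxcl5 is counted among the 6 by its measured 1.15, but it lay under the level filter on both 24 h arrays. It was kept only through the 72 h heme array (6.67), so its difference at 24 h has no size here. With the level filter set on the 24 h pair the list's median was 2.75. Among 13 kept members of a list of other CXC and CC chemokines 3 were 2-fold higher and 0 lower. The median of 0.17 is the value of Ccrl2, a receptor gene on that list. It turned to -0.13 against the mean of the 3 vehicle arrays. Ccl5 went from 7.17 to 10.40 (3.23), Ccl17 from 9.23 to 11.51 (2.28) and Ccl22 from 7.82 to 9.42 (1.60). Ccl17 was higher still on the 6 h vehicle array (12.07). Other members lay below 0 and under all 3 vehicle arrays, namely Ccl4 (-0.72), Ccl3 (-0.60), Ccl2 (-0.43), Ccl6 (-0.27) and Ccl9 (-0.09). Cxcl10 (at least 0.28) and Ccl7 (0.25) lay above 0 short of 2-fold. Cxcl9 and Ccl12 were under the level filter on both 24 h arrays.

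A list of other inflammatory factors, most of them secreted, had 6 of 22 members at least 2-fold higher and 0 lower (median 0.41). Acod1, which encodes an enzyme inside the cell that makes itaconate in activated macrophages and is on a second list too, was at 6.00 with vehicle and 9.75 with heme (3.74, 13.4-fold). The acute-phase gene Saa3 went from 8.30 to 11.81 (3.52). Tnf differed by 1.09, the matrix protein gene Thbs1 by 1.06 and the TNF family ligand gene Tnfsf9 by 1.001. Il6 had a measured difference of 2.17 but reached only 5.60 with heme, which gives at least 0.22. In the interleukin 1 family and inflammasome list 3 of 15 were 2-fold higher and 0 lower (median 0.14). Il1b went from 7.56 to 10.33 (2.77) and Il1f9, which encodes interleukin 36 gamma, from 6.30 to 8.86 (2.56). The decoy receptor gene Il1r2 counted by its measured value of 1.08, with a bound of at least 0.20, and Il18 differed by -0.74.

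All 20 kept NF-kB subunits and feedback regulators had differences above 0, with a median of 0.80, and 7 were at least 2-fold higher; over all genes 5387 of 11516 lay above 0. The inhibitor gene Nfkbie went from 5.65 to 7.99 (2.34) and Nfkbia from 8.02 to 9.37 (1.35). Tnfaip3, which encodes the feedback enzyme A20, differed by 1.53, Traf1 by 1.46, the subunit gene Nfkb2 by 1.24, Bcl3 by 1.23 and Tnip3 by 1.14. On the 24 h heme array 18 of the 20 lay above all 3 vehicle arrays. Arginine and itaconate genes had 2 of 12 members 2-fold higher and 0 lower (median -0.02). These were Acod1 and the arginase gene Arg2 (5.72 to 7.58, or 1.86), and the arginine transporter gene Slc7a2 differed by -0.85. Of 19 eicosanoid genes 2 were 2-fold higher and 0 lower (median 0.17). Pla2g7, a phospholipase that cleaves platelet-activating factor, was at 10.58 and 12.12 (1.54), and the prostaglandin E synthase gene Ptges was at least 0.86 higher, while Hpgds, the prostaglandin D synthase gene, differed by -0.93.

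Of the 20 genes with the largest differences above 0, 3 belong to no list used here. The Ly6 family gene Ly6i went from 5.92 to 8.84 (2.92), the chitinase-like gene Chil1 from 7.08 to 9.98 (2.90) and the non-classical MHC class I gene H2-M2 from 7.68 to 10.39 (2.70). All 3 lay above every vehicle array.

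The NF-kB binding motif, searched on both strands of the same RefSeq windows, was found in 1.63% of all windows and for 2% of the kept genes that have one. It was found for 10 of 127 genes (7.87%) at least 2-fold higher with heme and for 1 of 40 (2.5%) at least 2-fold lower. On the inflammatory lists 7 of 21 genes that were 2-fold higher held it and 5 of 41 that were not. The 150 bases before the start are printed for the 3 of these 7 with the largest measured difference, with matches in capitals. Il6 is among them by a vehicle level under the filter, and its bound is only 0.22. They lie on chromosome 5 of GRCm38.p6, on the + strand, at chr5:90785951-90786100, chr5:90903749-90903898 and chr5:30012964-30013113. Cxcl2 holds 2 matches, and no match overlapped an antioxidant motif in these 3 stretches.
Cxcl3: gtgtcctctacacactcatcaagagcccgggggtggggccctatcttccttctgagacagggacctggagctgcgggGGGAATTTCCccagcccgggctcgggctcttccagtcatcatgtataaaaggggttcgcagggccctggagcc
Cxcl2: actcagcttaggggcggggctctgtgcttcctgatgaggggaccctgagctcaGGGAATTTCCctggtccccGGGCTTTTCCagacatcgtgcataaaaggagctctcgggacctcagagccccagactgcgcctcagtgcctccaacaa
Il6: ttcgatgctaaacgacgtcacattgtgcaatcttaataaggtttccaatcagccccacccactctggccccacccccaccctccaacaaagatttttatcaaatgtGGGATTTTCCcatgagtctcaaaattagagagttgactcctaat

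Among receptors for microbes and dying cells, the members past 2-fold were few in each list. Of 14 kept C-type lectin receptors 3 were at least 2-fold higher and 0 lower. The median was -0.01 against the 24 h vehicle array and 0.44 against the mean of the 3 vehicle arrays. Clec4e and Clec4d, a receptor pair for mycobacterial glycolipid, went from 7.66 to 10.77 (3.10) and from 8.80 to 11.22 (2.42), and Clec4a1 from 5.86 to 7.68 (1.83). Among 15 scavenger receptors Marco alone passed 2-fold (6.97 to 9.12, or 2.15; median 0.03). Among 19 Toll-like receptors and adaptors the lipopolysaccharide co-receptor gene Cd14 alone did (9.92 to 11.32, or 1.40; median -0.04), followed by Tlr2 (0.85), while Ly86 differed by -0.77. In the complement list 2 of 11 were 2-fold higher and 1 was lower (median -0.03). Cfb, factor B of the alternative pathway, went from 9.02 to 11.35 (2.33) and the receptor gene C3ar1 from 10.74 to 9.29 (-1.46), while C1s1 counted by a measured 1.29 with both levels under the filter. C1qc differed by -0.98 and C1qa by -0.90.

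Fc receptors bind antibodies, and their list here also holds the Fc receptor-like gene Fcrls and the signalling chain gene Fcer1g. The list's median was -0.44, and -0.08 without the level filter, with 2 of 6 kept members at least 2-fold lower and 0 higher. Fcgr4 was at 9.50 with vehicle and 7.71 with heme (-1.80), Fcrls at 7.65 and 5.86 (-1.79) and Fcgr1 at 8.93 and 8.12 (-0.81). The shared signalling chain gene Fcer1g differed by 0.08. Of 29 chemokine and other G protein-coupled receptors 5 were 2-fold higher and 1, C3ar1, was lower (median 0.10). The fatty acid receptor gene Gpr84 was at least 2.51 higher, the lymph node homing receptor gene Ccr7 differed by 1.84, Gpr65 by 1.67, Gpr132 by 1.63 and the sphingosine phosphate receptor gene S1pr1 by 1.24. Of 27 cytokine and growth factor receptors 2 were 2-fold higher and 0 lower (median 0.14), Il1r2 and the G-CSF receptor gene Csf3r (6.73 to 7.73, or 1.001). Matrix metalloproteinases, ADAMs and their inhibitors had 3 of 18 members higher and 0 lower (median 0.28), namely Mmp14 (8.35 to 10.05, or 1.70), Mmp2 (1.28) and Adam8 (1.001).

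**Figure D2:**
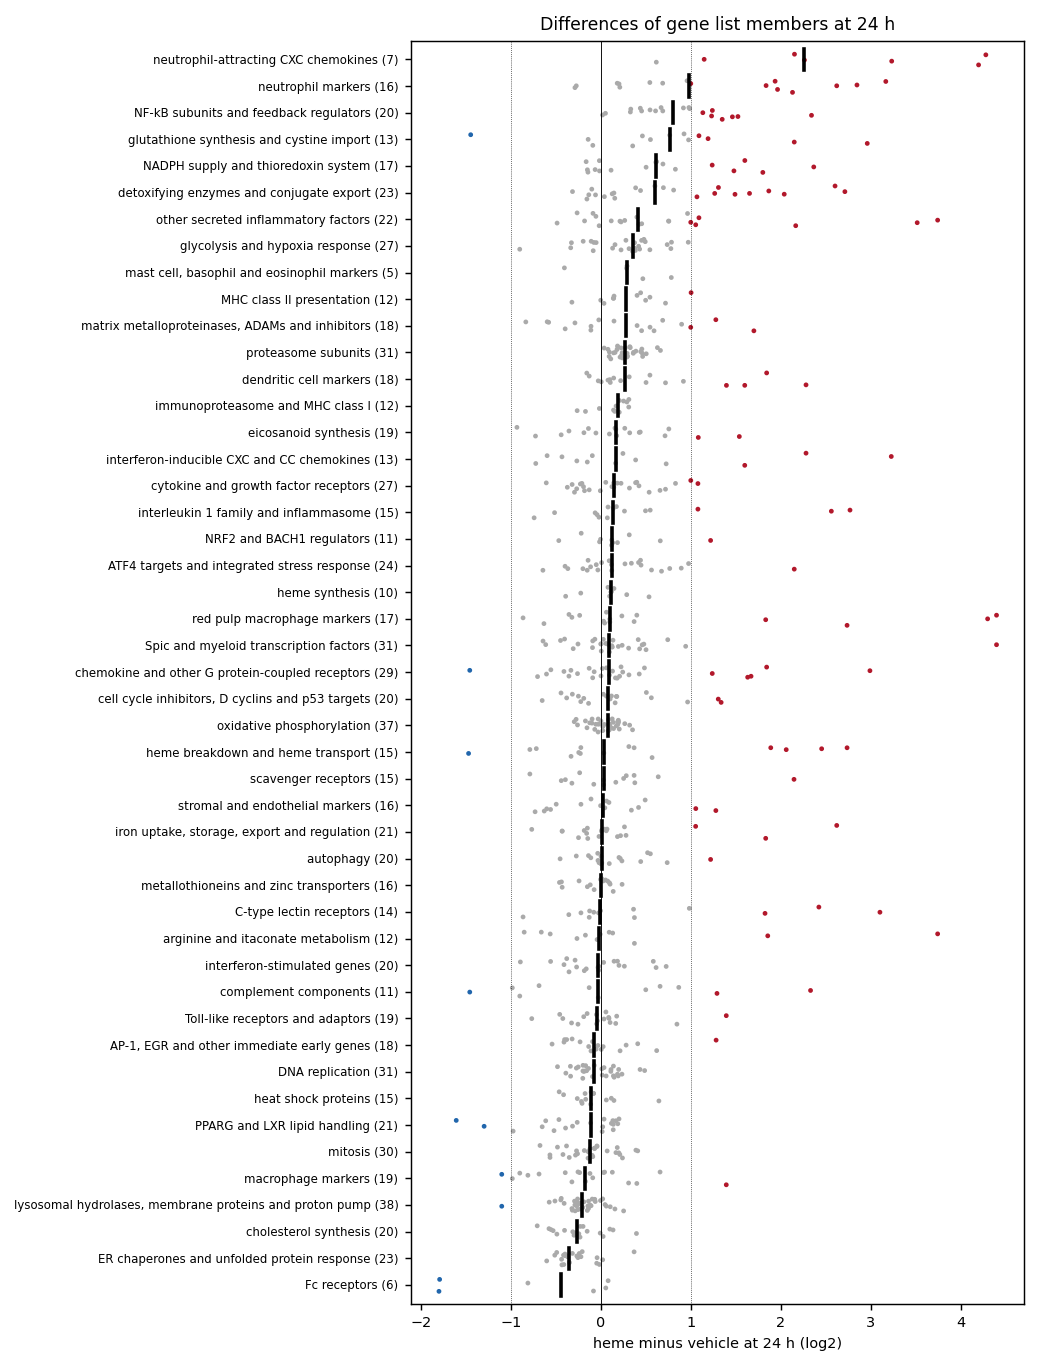
Difference between heme and vehicle at 24 h (log2, horizontal axis) of each kept member of the gene lists with at least 5 genes kept, 1 point per gene, with the number kept in brackets and the list's median as a black bar. Red and blue points are past 2-fold; the highest median is that of the neutrophil-attracting CXC chemokines (2.26) and the lowest that of the Fc receptors (-0.44).

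Genes of neutrophils made up a further group at 24 h, with 8 of 16 kept markers at least 2-fold higher, 0 lower and a median of 0.98. That median was 0.66 without the level filter, 1.94 with it raised by 1 and 0.68 against the mean of the 3 vehicle arrays. The calprotectin genes S100a8 and S100a9 went from 9.91 to 11.88 (1.97) and from 9.53 to 11.66 (2.13). The granule genes Camp and Ngp went from 6.30 to 8.24 (1.94) and from 6.58 to 8.42 (1.84). The stefin genes Stfa2 and Stfa3, close copies of one another whose probe sets may share signal, were at least 2.67 and 2.85 higher, and Lcn2 and Csf3r were named above. At 6 h Csf3r differed by 0.97, Ngp by 0.50 and the other 6 of these 8 by less. Differences there were 0.28 for S100a8, 0.05 for S100a9, 0.35 for Camp, 0.25 for Stfa2 and 0.00 for Lcn2. In vehicle the median member was lower at 24 h than at 6 h by a log2 difference of -1.71, and Stfa2 went from 8.67 to 4.87. On the heme array of 24 h Stfa2 was still at 8.04. At 72 h it was at 4.36 with heme and 3.995 with vehicle. Not all of the 8 took that course. Lcn2, Csf3r and S100a9 were also past 2-fold at 72 h (2.49, 1.42 and 1.05), and the rest of the 8 were not. Of these, Lcn2 and S100a9 fell in vehicle from 6 to 24 h, from 9.20 to 6.70 and from 12.08 to 9.53. Csf3r instead rose in vehicle, from 5.40 at 6 h to 6.73 at 24 h and 7.63 at 72 h. The lactoferrin gene Ltf took the course of Stfa2 short of 2-fold, with 7.12 and 7.29 at 6 h and 5.09 with vehicle and 6.05 with heme at 24 h (at least 0.68). Both its levels were under the filter at 72 h. Several other neutrophil markers were low or level. Ly6g was under the level filter at 24 h, Ctsg, Prtn3, Retnlg and Padi4 were under it on every array, and Mmp8 and Chil3, which macrophages also express, differed by -0.29 and -0.27. In RNA of all adherent cells together, more cells of a type, more of them adhering and more RNA per cell cannot be told apart.

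**Figure D3:**
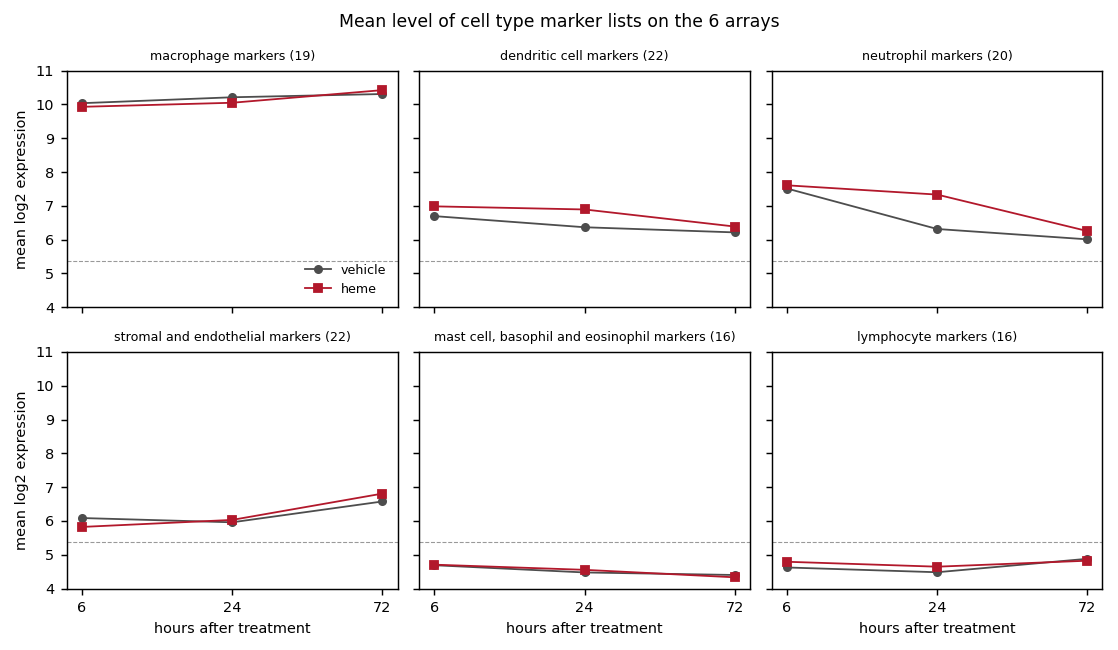
Mean log2 expression (vertical axis) over all measured genes of 6 marker lists on each array, by hours after treatment, with vehicle in grey circles and heme in red squares and the level filter dashed. For the neutrophil list, the means with heme and vehicle lie close at 6 h, stand at 7.33 and 6.32 at 24 h, and come close again at 72 h. Single members such as Lcn2 were still past 2-fold at 72 h.

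The mean level of all 20 measured neutrophil markers was 7.51 and 7.61 on the 6 h arrays, 6.32 with vehicle and 7.33 with heme at 24 h, and 6.01 and 6.25 at 72 h. Summed on the linear scale the list was 1.5 times as high with heme at 24 h, and 1.27 times without S100a8, left out after the data were seen. Its part in the differences of inflammatory genes that neutrophils also express, such as Il1b, Cxcl2 and Clec4e, was not tested. At 6 h these 3 genes differed by 3.33, 3.25 and 2.97, and the source of those differences was not tested either. Macrophage markers were present on both 24 h arrays in all 19 measured cases, with mean levels of 10.21 with vehicle and 10.05 with heme. Of the 19, Cd14 was 2-fold higher, the protease gene Lgmn 2-fold lower (10.34 to 9.24, or -1.10), and the median was -0.17. Dendritic cell markers had 4 of 18 members 2-fold higher and 0 lower (median 0.27). These were Ccl17, Ccr7, Ccl22 and the actin-bundling gene Fscn1 (at least 1.36), all genes of mature dendritic cells. Other such genes on the list were not past 2-fold, namely Relb (0.92), Cd40 (0.72), Cd86 (0.55), Cd83 (0.32) and Cd80 (0.14). Flt3, Zbtb46 and Xcr1, which define the lineage, lay under the filter on every array, and the summed level of the 22 measured markers was 1.74 times as high with heme. Without Ccl17, which lies inside the vehicle range, the sum was 1.25 times as high, a check chosen after the data were seen.

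Most lymphocyte, mast cell, basophil and eosinophil markers were low, with exceptions such as Il7r (9.74 with vehicle) and Prg2 (7.24 to 8.03). Of 16 measured lymphocyte markers 13 and of 16 mast cell, basophil and eosinophil markers 11 were under the level filter on every array. The members kept, 3 and 5, had medians of -0.13 and 0.29, with 0 past 2-fold. Among the erythroid and megakaryocyte markers 4 of 10 measured were kept, and the 2 past 2-fold were Ppbp and Pf4, while Itga2b and Car2 stayed under the filter on both 24 h arrays and Klf1, Gata1 and Gp9 on all 6. Stromal and endothelial markers gave signal, 14 of 22 measured reaching the filter on a 24 h array. They had 2 of 16 kept members 2-fold higher and 0 lower, with a median of 0.02 that was -0.33 against the mean of the 3 vehicle arrays. The 2 were Mmp2 (6.11 to 7.39, or 1.28) and Acta2 (6.19 to 7.24, or 1.06). Pdgfra and Pdgfrb were under the filter on every array.

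The genes with the lowest measured differences were Bex1, Cyp4a12b and Cyp4a12a, and their order is not settled because 2 of them lay under the filter with heme. Bex1, a gene known from the nervous system, was at 8.28 on the vehicle array and 4.81 on the heme array, at least -2.91 after the bound. Cyp4a12a and Cyp4a12b, fatty acid hydroxylases so alike that probe sets may not separate them, went from 8.46 to 5.33 (at least -3.08) and from 8.99 to 5.59 (-3.39). In vehicle both were already low at 72 h, at 4.67 and 4.94. The lectin-like receptor gene Klra17 went from 9.25 to 6.90 (-2.34). Its heme level was the same at 24 and 72 h, and the vehicle level at 72 h was 9.36. Among the 20 genes farthest below 0 there followed Tnfsf8 (at least -1.49), the co-stimulatory receptor gene Cd28 (-1.91), the growth factor gene Pdgfc (-1.89), Fcgr4, Fcrls, Ifi207 (-1.63) and the lipid carrier gene Apoe (-1.61). The guanylate-binding protein genes Gbp8 (-1.56) and Gbp9 (at least -1.30), the phospholipase gene Plcb1 (at least -1.21), Retnla (-1.56) and the kallikrein gene Klk1b9 (-1.49), which has many close copies, followed. The last of the 20 were Slco2b1, C3ar1, Gpx3 and the retinal reductase gene Dhrs3 (-1.43).

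Lipid genes accounted for part of the lower side. Of 21 genes of PPARG and LXR lipid handling 2 were at least 2-fold lower, 0 were higher and the median was -0.11. Apoe went from 8.70 to 7.10 and the fatty acid carrier gene Fabp4 from 9.61 to 8.32 (-1.30), and Plin2, which coats lipid droplets, differed by -0.97. Apoe lay inside the vehicle range, since it was at 6.96 on the 6 h and 11.12 on the 72 h vehicle array. In the cholesterol synthesis list 0 of 20 passed 2-fold in either direction, 4 lay above 0 and the median was -0.26. Cyp51 (-0.71), Idi1 (-0.57) and Hmgcs1 (-0.55) led it, and 18 of the 20 stayed inside the vehicle range. Of 38 lysosomal genes 1, Lgmn, was 2-fold lower and 0 were higher, 6 lay above 0 and the median was -0.21. Gpnmb differed by -0.57, Ctsl by -0.51 and Ctsb by -0.44.

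Several lists of cell machinery had no member past 2-fold, and in the proteasome and endoplasmic reticulum lists nearly all differences ran 1 way. All 31 proteasome subunits were higher with heme, by 0.04 to 0.66, with 0 past 2-fold and a median of 0.27, where 5387 of 11516 genes lay above 0. Psmb5 (0.66) and Psma5 (0.63) had the largest differences. Of 23 endoplasmic reticulum chaperones and genes of the unfolded protein response only 2 lay above 0, with 0 past 2-fold and a median of -0.35. Manf (-0.60) and Dnajb9 (-0.51) led on the lower side and Ero1a (0.37) on the other, and 16 of the 23 lay under all 3 vehicle arrays. Heat shock genes, of the cytosol and mitochondria, had 4 of 15 above 0, 0 past 2-fold and a median of -0.11, with Dnajb4 at 0.65. The 27 genes of glycolysis and the hypoxia response had a median of 0.35 with 0 past 2-fold, from Slc2a1 (0.97), the glucose transporter gene, and Slc16a3 (0.79) down to the transcription factor gene Epas1 (-0.90).

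Oxidative phosphorylation (37 genes), DNA replication (31), mitosis (30), metallothioneins and zinc transporters (16), the immunoproteasome with MHC class I (12) and interferon-stimulated genes (20) had 0 members past 2-fold at 24 h. Their medians were 0.08, -0.07, -0.12, 0.00, 0.19 and -0.03. The largest differences in these lists were Uqcrq (0.35), Tyms (0.49), Cenpa (-0.67), Slc30a5 (-0.46), Tapbp (0.31) and Gbp3 (-0.89). Gbp8, Gbp9 and Ifi207, of interferon-inducible families and 2-fold lower, are not on the list of interferon-stimulated genes. Autophagy (1 of 20, Sqstm1, median 0.01), ATF4 targets (1 of 24, Slc7a11, median 0.12) and immediate early genes (1 of 18, Nr4a3, at least 0.99, median -0.07) had 1 member higher each, and 0 lower. MHC class II genes had 1 of 12, H2-Oa (1.004), with a median of 0.28 and 0 lower. Of 20 cell cycle inhibitors, D cyclins and p53 targets, the CDK inhibitor gene Cdkn2b (1.34) and the stress gene Gadd45a (1.31) were 2-fold higher, 0 were lower and the median was 0.08.

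**Figure D4:**
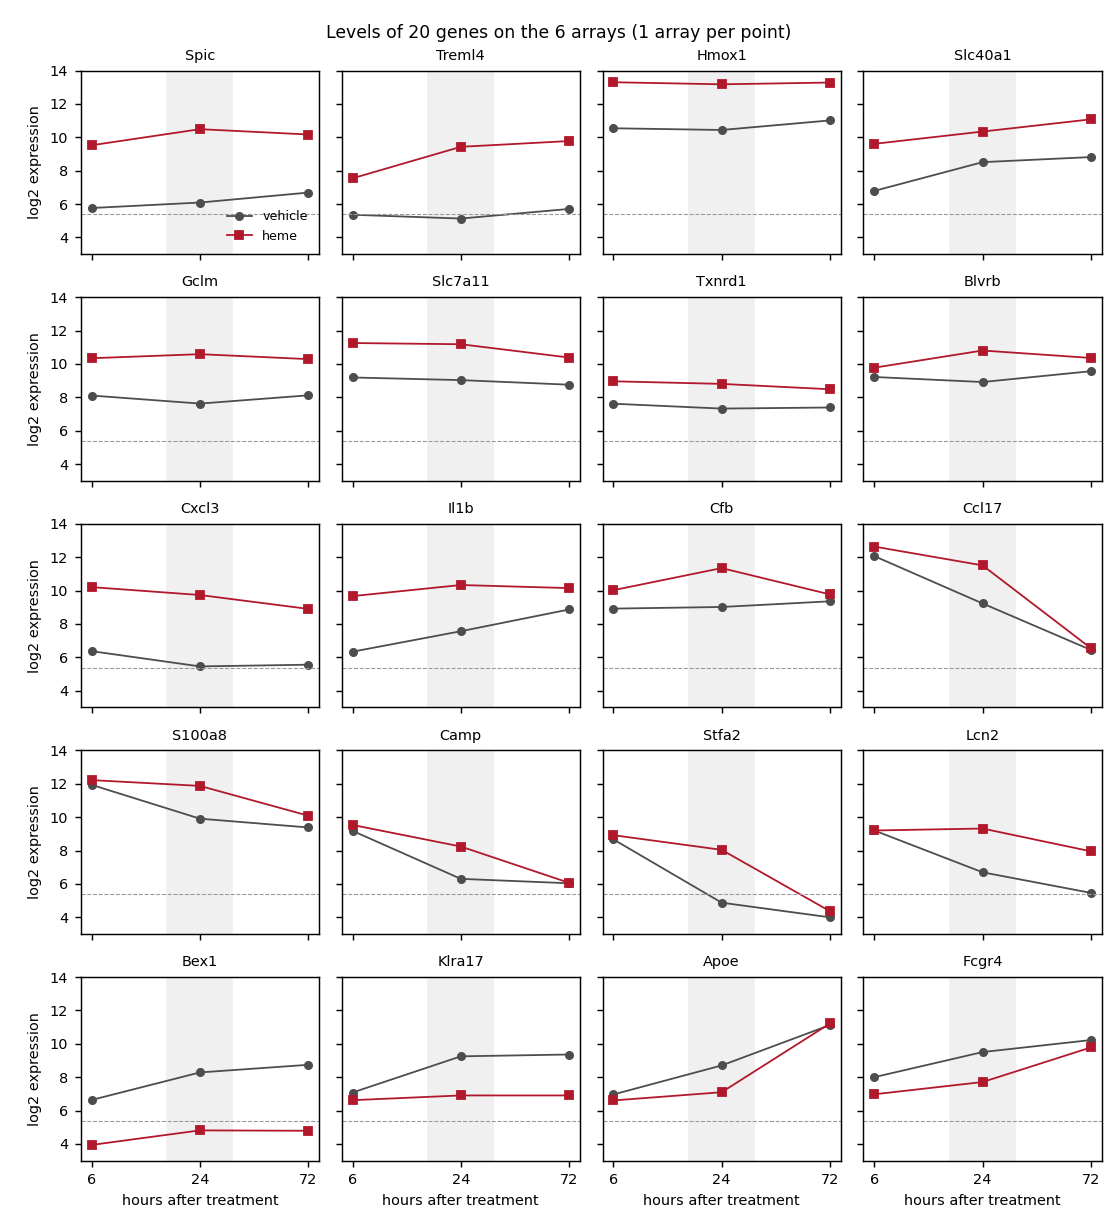
Log2 expression (vertical axis) of 20 genes at 6, 24 and 72 h with vehicle (grey circles) and heme (red squares), 1 array per point, with times at equal spacing, 24 h shaded and the level filter dashed. Spic and Hmox1 are apart at each time, S100a8, Camp and Stfa2 are apart mainly at 24 h, and Apoe meets again at 72 h.

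The 24 h differences were set beside those of the 6 h and 72 h pairs, which share no array with them. At 6 h 111 genes (0.964%) were at least 2-fold higher and 77 (0.669%) lower, and at 72 h 144 (1.25%) and 70 (0.608%). Of the 164 genes higher at 24 h, 59 were also 2-fold higher at 6 h (36.0% of the 24 h genes and 53.2% of the 6 h genes), and 86 at 72 h (52.4% and 59.7%). All 3 times were shared by 38 genes, 6 and 24 h alone by 21, 24 and 72 h alone by 48, and 57 passed 2-fold at 24 h and at no other time. Of the 56 lower genes 13 were also 2-fold lower at 6 h (23.2% and 16.9%) and 22 at 72 h (39.3% and 31.4%), 5 at all 3 times, and 26 at 24 h alone. At both other times 0 genes were past 2-fold in the opposite direction. Genes chosen at 24 h tend to show their largest difference there, and a difference between times was not tested.

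Within that pattern, single genes took different courses. Acod1 differed by 4.31, 3.74 and 1.36 at 6, 24 and 72 h, Tnf by 2.69, 1.09 and 0.63, and Ccl5 by 2.49, 3.23 and 1.37. Others had larger values later. Marco differed by 0.92, 2.15 and 4.85, Ppbp by 1.12, at least 3.80 and 5.08, and Gsta3 by at least 1.77 at 24 h. At 72 h the bound for Gsta3 was 2.74, and both its 6 h levels lay under the filter. Hp differed by 0.29, 2.46 and 2.65 and Ly6i by 0.18, 2.92 and 2.22, so that 24 h was the first time past 2-fold for both. Cfb had differences of 1.11, 2.33 and 0.41, and Blvrb of 0.56, 1.89 and 0.79. On the lower side C3ar1 differed by -0.73, -1.46 and 0.09 and Apoe by -0.36, -1.61 and 0.10.

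**Figure D5:**
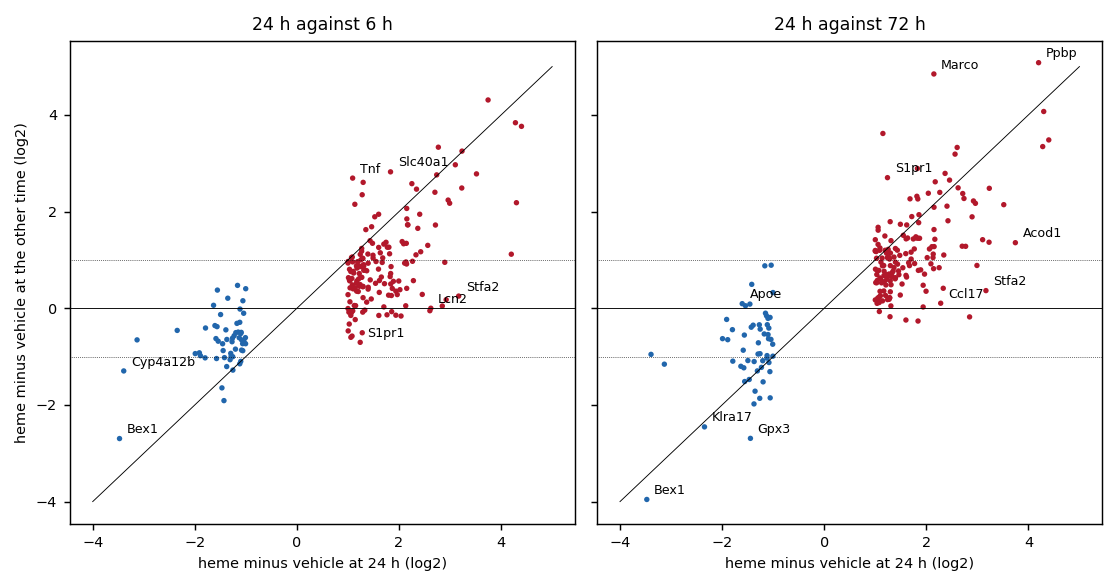
Heme minus vehicle difference (log2) at 6 h (left) and 72 h (right) against that at 24 h, for the 164 and 56 genes past 2-fold at 24 h, red where higher and blue where lower at 24 h. Dotted lines mark 2-fold at the other time and the diagonal marks equal differences; no red point lies under the lower dotted line and no blue point above the upper one.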

How the data were processed

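Total RNA of the adherent cells was measured on 6 mouse gene arrays, 1 per treatment and time. The deposited values are log2 expression per probe set, made by the authors with RMA and quantile normalisation in ArrayStar, per the labels; its version and a genome build were not given in the sources used here. RMA pulls arrays to 1 distribution, so a shift shared by most genes cannot be seen. Of 35556 probe sets, 21789 name 1 gene in the platform annotation, 1621 name several and 12146 are not listed there or have no gene name. The number of arrays limits the precision.

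Differences were computed in Python 3.11.15 with numpy 2.4.6 and pandas 2.3.3, and alternative normalisations in R 4.3.3 with limma 3.58.1. The scripts were tested on simulated data. Named genes are the 20 highest and 20 lowest differences (predicted genes, small RNAs and lymphocyte receptor segments only counted), all members of 49 lists past 2-fold, the 4 members of each list with the largest differences, of which some are given only by counts, and Spic, Hmox1, Slc40a1, Treml4 and Vcam1. Members and lists were chosen with earlier results of these data known. Promoter sequences are from RefSeq, GRCm38.p6. Alternatives were other normalisations, level filters, probe set rules, thresholds and references. No test was made.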

Additional observations from a re-analysis of the deposited data

Results flagged for a closer look

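Acta2, the smooth muscle actin gene, and S1pr1 lay on opposite sides of 0 at 6 and 24 h, and with 1 array a group the difference between the times was not tested. Acta2 differed by 1.06 at 24 h, but its level at 6 h was 6.67 with vehicle and 6.07 with heme, a difference of -0.60. S1pr1 differed by 1.24 at 24 h, against 6.21 with vehicle and 5.50 with heme at 6 h (-0.70), and by 2.70 at 72 h.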

How the results depend on the processing

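The 164 and 56 genes past 2-fold became 175 and 49 after quantile normalisation, 165 and 55 after median-centring and 175 and 51 after cyclic loess. They were 132 and 41 with an offset of 16 added on the linear scale, and 149 and 47 against the mean of the 3 vehicle arrays. At a 1.5-fold threshold 426 genes were higher and 326 lower, and at 4-fold 45 and 4. Of the list medians, that of the lymphocyte markers turned to 0.13 without the level filter. That of the other CXC and CC chemokines turned to -0.13 against the vehicle mean, and the cause was not tested. In all, the medians of 10 of 49 lists changed sign under at least 1 alternative, most of them from a value within 0.1 of 0, and those of 20 lists moved by over 0.1. The heme breakdown median was -0.09 both without the filter and with it set on the 24 h pair, that of the C-type lectins 0.44 and that of the stromal markers -0.33 against the vehicle mean. The neutrophil median ranged from 0.66 to 1.94 and the erythroid and megakaryocyte median from 0.36 to 3.23 with the level filter. Camp differed by 1.07 against the vehicle mean. The alternatives were applied to the 109 named genes that were past 2-fold at 24 h, and none changed sign where it had a value. Differences of that size leave little room for a change of sign, and named genes with smaller differences were not checked. Against the vehicle mean 13 of the 109 were under 2-fold, among them Il1r2 (0.10), Acta2 (0.63), Gclc (0.82) and Tnf (0.84). Leaving out an array gives no value with 1 a group. No paired analysis was possible because no group has a second array. Signals near background limit the size of differences more than their direction.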

Other observations

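Genes outside the lists are given here by their values alone, and they were chosen after those values were seen. In each case the 24 h heme array lay above all 3 vehicle arrays for those on the higher side. Jag1, a ligand of Notch receptors, was at 4.97 with vehicle and 7.15 with heme, at least 1.77, and it differed by 2.62 at 72 h. The zinc importer gene Slc39a4 differed by 2.15, the glucose transporter family gene Slc2a6 by 2.14, and Lpcat2, which makes platelet-activating factor, by 2.14. Ninj1, whose product ruptures the membrane of dying cells, went from 6.98 to 9.09 (2.11). Mefv, which encodes the inflammasome protein pyrin, was at least 1.67 higher, and Trem1, an amplifying receptor of myeloid cells, at least 0.84. The matrix protein gene Tgfbi differed by 1.80, the protein C receptor gene Procr by 1.77, the inhibitory receptor gene Siglece by 1.72 and the lipid-presenting gene Cd1d1 by 1.68.

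On the lower side, the membrane protein gene Emp1 was at 7.997 with vehicle and 6.62 with heme (-1.37). The sulfatase gene Sulf2 differed by -1.31, the integrin gene Itga6 by -1.29 and the angiotensin-converting enzyme gene Ace by -1.12. All 4 lay under the 3 vehicle arrays. Among 7312 kept probe sets that do not name a single gene, 98 were at least 2-fold higher with heme and 275 at least 2-fold lower. Lower ones thus outnumbered higher ones among these probe sets. Among the 11516 kept genes it was the reverse, with 164 higher (1.42%) and 56 lower (0.486%). These probe sets are unnamed here, and the counts of genes do not cover them.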
